A study of Ovis aries with 30 samples.

Results

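The 10 genes described here encode the PGC-1 coactivators PPARGC1A and PPARGC1B and transcription factors related to them. PPARA, PPARG, PPARD, ESRRA, ESRRG, NRF1 and RXRA are factors they work with, while TFAM acts on mitochondrial DNA. The genes were taken by symbol from a table of 28524 genes, and all 10 symbols were found there once. RNA was sequenced from BAT around the kidneys and from thyroid tissue of 15 newborn Romney lambs, 1 library per tissue and lamb. The cold group held 6 lambs kept indoors for 2 days at 4 °C, the AT group held 6 lambs kept indoors for 2 days at 20 to 22 °C, and the 3 controls were sampled before any exposure, about 24 h after birth by the series' own description and 12 to 24 h after birth by the study's methods. No gene was altered in any group. All exposed lambs stayed in pens with their dams, and each was the heavier twin of its litter. Exposed lambs were also 2 days older than the controls when sampled, so that age and housing cannot be told apart from temperature in any comparison with the controls. Only cold against AT compared lambs of one age.

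PGC-1 coactivators do not bind DNA themselves. They dock on nuclear receptors such as the PPARs and the estrogen-related receptors and on NRF1, and so raise transcription of genes for mitochondria, fatty acid oxidation and, in brown fat, the uncoupling protein UCP1. In rodents, adrenergic stimulation by cold is known to induce PPARGC1A in brown fat. In many mammals born with brown fat, lambs among them, the perirenal depot loses its brown character in the weeks after birth.

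BAT libraries held 31556500 to 37025998 counts and thyroid libraries 25062784 to 30124871, but an unnamed gene pair (LOC114112617 and LOC114115287) took 43.8% to 76.5% of the BAT counts, leaving at least 8093700 counts for all other genes. The study left out 1 control, the same lamb in both tissues, for outlying counts overall. That lamb is control 2 here, and results come from control 1 and control 3 unless all 3 controls are named. The tissue labels were checked against marker genes. The summed normalized count of 10 thyroid follicle genes, each tissue on its own scale, lay between 1330000 and 5890000 in thyroid tissue and at or below 1660 in BAT. On a scale common to both tissues, UCP1 had 204 to 22580 normalized counts per kb in BAT and 1.16 to 136 in thyroid tissue. Thyroid control 2, outside that range, had 226, above the lowest BAT value. Some libraries stood apart. The summed count of 13 skeletal muscle genes reached 3985000 in thyroid AT 3 and 364500 in thyroid control 1, against 390 to 5153 in the other 12 thyroid libraries used and 362 to 923 in BAT. The summed count of 5 parathyroid and C cell genes ran from 221 in thyroid AT 6 to 264600 in thyroid AT 4, with 31920 in control 1 and 701 in control 3. In these bulk samples, fewer cells of a type and less RNA per cell cannot be told apart.

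Normalized counts are deposited counts divided by a size factor that was set by 3 reference genes chosen in the study (HUWE1, RPL19 and ACTB). A gene was called when its absolute log2 fold change (log2FC) was at least 1 and its adjusted p from edgeR's quasi-likelihood test (Benjamini-Hochberg over all tested genes) was under 0.05. Of the 10 genes, 9 passed the filter on low counts in both tissues. ESRRG, an orphan receptor of the estrogen-related family, did not. Its deposited counts ranged from 0 to 6 per BAT library and from 1 to 9 per thyroid library, so that no change in it was detectable at this depth. The exact permutation p of ESRRG lay between 0.286 and 0.821 over the 4 comparisons with controls, where the smallest p that 2 against 6 lambs allow is 0.0357.

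In the coordinates of the deposited table (Oar_rambouillet_v1.0), PPARGC1A spans 48028894 to 48541490 on the minus strand of chromosome 6, with 7350 exonic bases, and PPARGC1B spans 63788563 to 63909501 on the plus strand of chromosome 5. PPARA (chromosome 3, 237431918 to 237460972), PPARD (chromosome 20, 10979965 to 11069077), ESRRA (chromosome 21, 44404414 to 44412477) and NRF1 (chromosome 4, 102277992 to 102405284) also lie on plus strands. PPARG (chromosome 19, 58596710 to 58719346), ESRRG (chromosome 12, 21901725 to 22380425), TFAM (chromosome 25, 47492218 to 47508680) and RXRA (chromosome 3, 1886358 to 1978936) lie on minus strands. PPARA and RXRA share chromosome 3 but sit far apart on it. Counts were made over exons of these genes, and no reads from introns or UTRs were set apart.

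The first question was how much of each factor the tissues hold. PPARG, the adipocyte master regulator, and PPARGC1B were by far the most BAT-enriched of the 10 genes. On the scale of normalized counts per kb of exonic length, common to both tissues, PPARG had a level of 2574 ± 764 in BAT (SD, n = 14 lambs) and 90.2 ± 27.7 in thyroid tissue. The level of PPARGC1B was 115 ± 45.0 in BAT and 5.24 ± 9.91 in thyroid tissue, where thyroid AT 3 alone reached 39.6. The BAT and thyroid values did not overlap for PPARG. For PPARGC1B, 1 thyroid value, that of AT 3, lay above the lowest BAT value of 31.5.

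Differences between the tissues were tested over 28 libraries by edgeR, as BAT against thyroid averaged over the 3 groups. The log2FC was 4.82 ± 0.24 (SE) for PPARG (adjusted p = 2.57e-15) and 4.87 ± 0.57 for PPARGC1B (adjusted p = 4.67e-08), the only members called at a log2FC of 1, where 35% of all 14954 tested genes were called. At the adjusted p alone, 7 members were higher in BAT, where 46.7% of all genes were, and 1 was lower, where 24.1% of all genes were. UCP1, the target for which PGC-1 coactivators are best known, differed by 8.58 ± 0.98 (adjusted p = 3.69e-08).

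PPARGC1A differed far less between the tissues than its paralog. Its level per kb was 137 ± 78.0 in BAT and 77.9 ± 37.6 in thyroid tissue, and the log2FC was 0.75 ± 0.23 (edgeR adjusted p = 0.00627). With both tissues of a lamb paired in the fit the log2FC was 0.63 (adjusted p = 0.0350), under TMM scaling 0.48 (adjusted p = 0.0695) and with all 3 controls 0.43 (adjusted p = 0.148), and over 19 alternatives the adjusted p ranged from 0.00129 to 0.251. ESRRA, the estrogen-related receptor most tied to mitochondrial genes, had 418 ± 119 normalized counts per kb in BAT and 200 ± 113 in thyroid tissue, a log2FC of 0.98 ± 0.20 (adjusted p = 8.89e-05). PPARD, the broadly expressed PPAR, was the one member higher in thyroid tissue, with 216 ± 98.2 per kb in BAT and 364 ± 149 in thyroid tissue and a log2FC of -0.74 ± 0.15 (adjusted p = 9.36e-05).

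The remaining factors were close to even between the tissues. RXRA, the obligate partner of the PPARs, differed by 0.34 ± 0.11, PPARA, the fatty acid sensing PPAR, by 0.40 ± 0.14, and TFAM, which packages and transcribes mitochondrial DNA, by 0.26 ± 0.10, all at an adjusted p under 0.05. NRF1, an activator of nuclear genes for mitochondria that is bound by PGC-1, differed by -0.05 ± 0.13 (adjusted p = 0.737). Across alternatives, the log2FC of TFAM went down to -0.01 and that of RXRA to 0.05.

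Within a tissue the order of levels also differed. In BAT, PPARG was the highest, followed by ESRRA (418 per kb) and RXRA (370 ± 90.8 per kb), which were within 1 SD of each other. PPARD came next, and PPARGC1A, TFAM (130 ± 21.1), NRF1 (118 ± 39.6) and PPARGC1B were within 1 SD of one another. In thyroid tissue PPARD and RXRA (291 ± 32.9 per kb) led, again within 1 SD, and NRF1 (122 ± 21.2), TFAM (104 ± 23.3), PPARG and PPARGC1A followed ESRRA. PPARA was low in both tissues, at 68.6 ± 16.9 per kb in BAT and 51.9 ± 10.7 in thyroid tissue, and ESRRG had under 1 normalized count per kb on average in both.

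**Figure D1:**
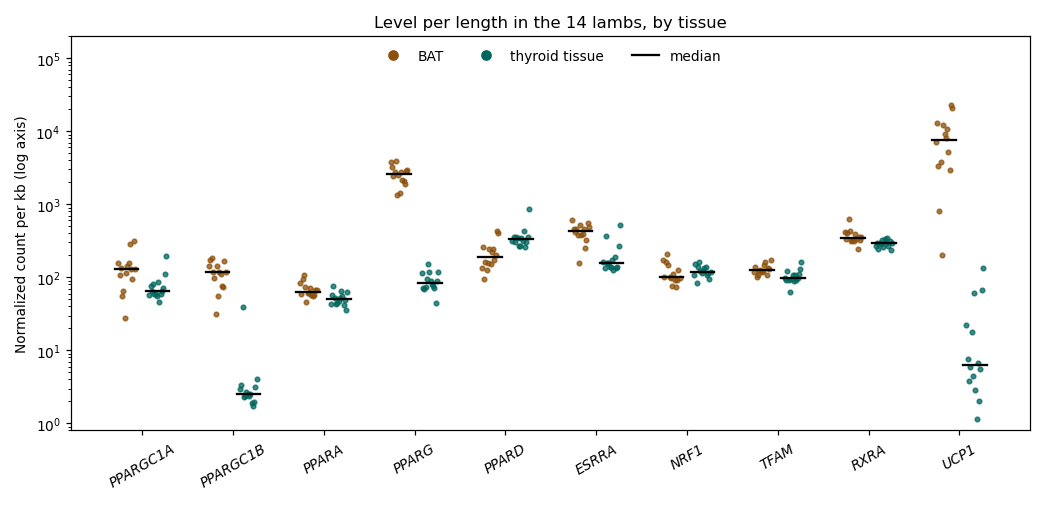
Normalized counts per kb of exonic length (log axis) of 9 of the 10 genes and UCP1 in BAT (brown points) and thyroid tissue (green points), with 1 point per lamb, 14 lambs per tissue, and a black line at the median. PPARG, PPARGC1B and UCP1 stand far higher in BAT, PPARD stands higher in thyroid tissue, and NRF1, TFAM, RXRA and PPARA lie close together.

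In BAT the comparison with controls asked how the factors changed over 2 days at either temperature. PPARD was the only member called, lower in AT lambs than in controls. PPARD had 963 normalized counts in control 1 and 922 in control 3. The cold lambs ranged from 327 to 577 with a median of 489, and the AT lambs from 209 to 599 with a median of 317. All 12 exposed lambs lay below both controls, and below the 751 of control 2 as well.

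In AT lambs the log2FC of PPARD was -1.44 ± 0.28 (SE, edgeR adjusted p = 0.00815, n = 6 against 2). It was the 1 lower member of 9 tested, where 6.07% of 14905 genes were called in either direction and 3.21% were called lower, and at the adjusted p alone it was again the only one, where 6.15% of genes were lower. In cold lambs the log2FC was -1.0 ± 0.29 and not called (adjusted p = 0.0783). The call in AT lambs was lost when control 1 (log2FC -1.41, adjusted p = 0.0729) or control 3 (-1.46, adjusted p = 0.0917) was left out, and over 23 alternatives the log2FC stayed between -1.66 and -1.27 with an adjusted p from 0.000389 to 0.0917.

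PPARGC1A varied widely among lambs of the same group. It had 1429 normalized counts in control 1, 597 in control 3 and 2242 in control 2. The cold lambs ranged from 429 to 1244 with a median of 624, and the AT lambs from 122 to 697 with a median of 405. The highest values belonged to controls and 1 cold lamb, the lowest 3 to AT lambs, and the groups overlapped.

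Against 2 controls, the log2FC of PPARGC1A in BAT was -0.52 ± 0.52 in cold lambs (edgeR adjusted p = 0.640) and -1.30 ± 0.50 in AT lambs (adjusted p = 0.117), neither called. With all 3 controls the AT difference was called, at -1.73 (adjusted p = 0.0271), and without control 1 it was -0.54 (adjusted p = 0.71), so that the value followed the choice of controls. Over 23 alternatives the adjusted p for AT ranged from 0.0159 to 0.71. In cold lambs the log2FC turned to 0.22 without control 1.

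The one-age comparison gave a log2FC of 0.78 ± 0.38 for PPARGC1A, cold against AT (edgeR adjusted p = 0.427). The exact permutation test of 6 against 6 lambs on log2(normalized count + 1) gave a mean difference of 0.92 and an unadjusted p of 0.0671 (two-sided, 1 of 20 such tests over the members and tissues). AT 6 had the lowest values of all 14 BAT libraries for PPARGC1A (122), UCP1 (195), PPARGC1B (200), ESRRA (343), PPARG (1918) and PPARA (234), and for the sum of 10 brown adipocyte markers (28160). Without AT 6, the difference for PPARGC1A was 0.57 (adjusted p = 0.316).

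PPARGC1B did not follow the same course in BAT. Its normalized counts were 1096 and 790 in the controls (1827 in control 2), 352 to 975 in cold lambs (median 615) and 200 to 1176 in AT lambs (median 825). The groups overlapped, with log2FC values of -0.56 ± 0.47 in cold lambs (edgeR adjusted p = 0.561) and -0.22 ± 0.47 in AT lambs (adjusted p = 0.805).

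NRF1 showed the clearest difference between cold and AT lambs in BAT, though it was not called. Its normalized counts were 628 and 485 in the controls, 361 to 575 in cold lambs (median 440) and 474 to 982 in AT lambs (median 745), and 4 of the 6 AT lambs were above every cold lamb. The log2FC, cold against AT, was -0.68 ± 0.19 (edgeR unadjusted p = 0.00217, adjusted p = 0.151), and the exact permutation p was 0.0152, unadjusted. Without AT 6 the adjusted p was 0.0367 at a log2FC of -0.78, and over 23 alternatives it ranged from 0.0367 to 0.400. In that comparison 0.275% of all genes were called, none of them a member. Control 2, at 278, had less NRF1 than any other BAT library.

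The other receptors gave smaller values in BAT. PPARG had 4228 and 4389 normalized counts in the controls, 2013 to 4216 in cold lambs (median 3103) and 1918 to 5728 in AT lambs (median 4345). Every cold lamb was below both controls, but control 2 was at 3528, inside the cold range, and the log2FC was -0.45 ± 0.33 (edgeR adjusted p = 0.507). ESRRA, PPARA, RXRA and TFAM had log2FC values between -0.43 and 0.29 against the controls, with adjusted p between 0.231 and 0.951. Thus no member was called in cold against control by edgeR, where 1.21% of genes were called, while 1 member, PPARD, had an unadjusted p under 0.05 and DESeq2's Wald test called that gene (adjusted p = 0.0372). In cold against AT, edgeR and DESeq2 called none, and NRF1 was the 1 member with an unadjusted edgeR p under 0.05. Of all 14905 tested genes, 2704 had an unadjusted edgeR p under 0.05 in cold against control and 1831 in cold against AT.

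**Figure D2:**
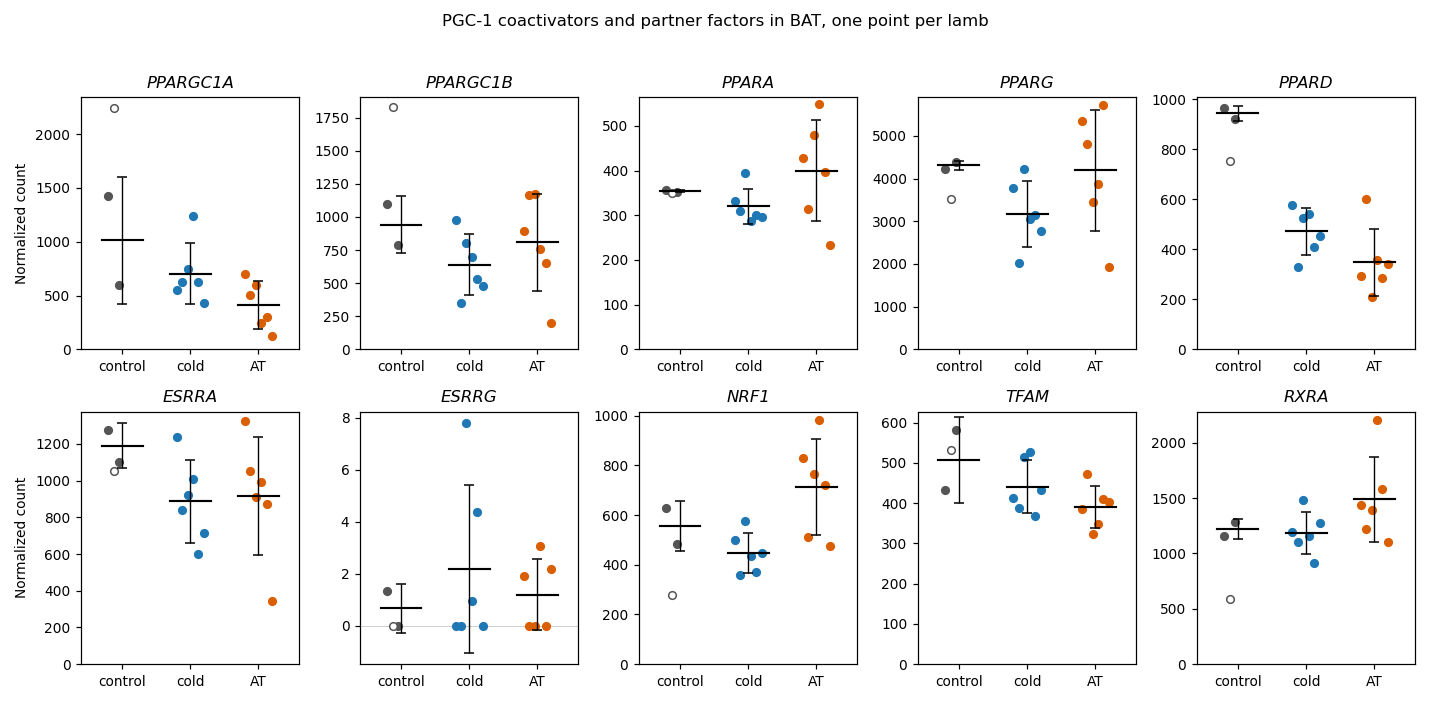
Normalized counts in BAT of the 10 genes, 1 panel per gene, for controls (grey), cold lambs (blue) and AT lambs (orange), with 1 point per lamb, the mean as a line and the SD as a bar, and control 2, which is outside the mean, as an open point. PPARD separates the controls from all exposed lambs, NRF1 lies higher in most AT than cold lambs, and PPARGC1A overlaps between groups.

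UCP1 tracked PPARGC1A across BAT libraries. UCP1 had 22460 and 20590 normalized counts in the controls and 87350 in control 2, 2907 to 12410 in cold lambs (median 8553) and 195 to 12950 in AT lambs (median 3458). Exposed lambs were all below the controls, with log2FC values of -1.42 ± 0.90 in cold lambs (edgeR adjusted p = 0.432) and -2.23 ± 0.88 in AT lambs (adjusted p = 0.127). Over the 14 libraries the Pearson r between log2 values of UCP1 and PPARGC1A was 0.86 (Spearman rho 0.59), which ranked UCP1 as number 2 of 9910 genes with a mean of at least 100 normalized counts. KLHDC7A (r = 0.87, rho 0.71) was the highest-ranked gene, and FABP3, a fatty acid carrier, came just after UCP1 (r = 0.86, rho 0.81). Among the 12 exposed lambs alone r was 0.85 for KLHDC7A, 0.87 for UCP1 and 0.87 for FABP3. These are descriptions over libraries that share their size factors.

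Of the other members, ESRRA was the most like PPARGC1A in BAT (r = 0.67, number 78 of 9910), followed by PPARGC1B (r = 0.58) and PPARD (r = 0.45). RXRA (r = -0.29) and NRF1 (r = -0.16) had weak negative values. The reference genes that set the scale had r of 0.47 (ACTB), -0.28 (RPL19) and 0.12 (HUWE1). Values of the size seen for PPARD, RXRA and NRF1 thus also occurred among the reference genes. The brown adipocyte marker sum was 108000 and 108800 in the controls, 49670 to 90440 in cold lambs and 28160 to 117300 in AT lambs. FABP4 alone gave 55700 ± 5500 of it in the controls, 36800 ± 9610 in cold lambs and 21200 ± 8960 in AT lambs. Gene by gene, the list's median log2FC was -0.22 in cold and 0.38 in AT lambs, beside -0.10 and -0.03 for all genes. The white adipocyte marker sum was 1786 and 2200 in the controls, 1621 to 7029 in cold lambs and 3903 to 9595 in AT lambs. The endothelial marker sum was 62980 and 56620 in the controls, 42790 to 63530 in cold lambs and 36060 to 47600 in AT lambs. No gene of the 10 brown adipocyte markers was at 0 in a BAT library. The part of these cell types in the values of PPARGC1A, PPARD and UCP1 was not tested.

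**Figure D3:**
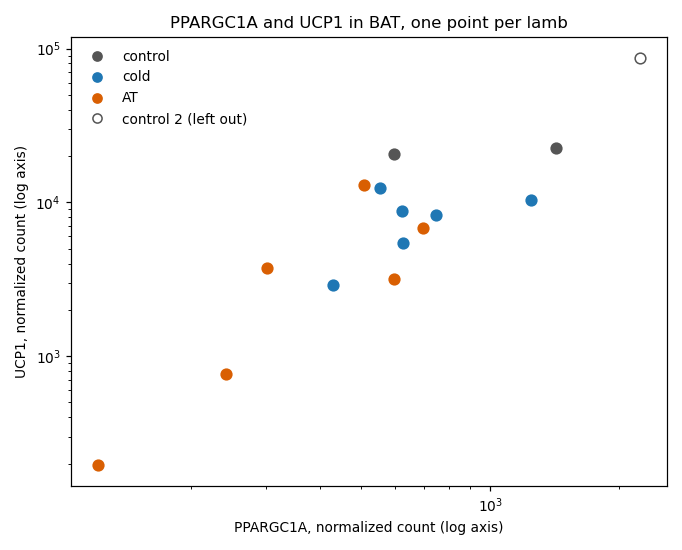
UCP1 against PPARGC1A in BAT, both as normalized counts on log axes, with 1 point per lamb, controls in grey, cold lambs in blue, AT lambs in orange and control 2 as an open point. The AT lamb with 122 normalized counts of PPARGC1A also had the lowest UCP1, at 195, and control 2 was highest in both.

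In thyroid tissue, PPARGC1A and ESRRA were downregulated in both exposed groups against the controls. PPARGC1A had 1319 normalized counts in control 1 and 2258 in control 3. The cold lambs ranged from 556 to 1067 with a median of 714, and the AT lambs from 678 to 949 with a median of 732. All 12 exposed lambs were below both controls. Control 2, which is outside the test, had 11170.

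The log2FC of PPARGC1A was -1.23 ± 0.23 in cold lambs (edgeR adjusted p = 0.00433) and -1.20 ± 0.23 in AT lambs (adjusted p = 0.00405). Both comparisons use the same 2 controls, and over 23 alternatives the call held in 20 in cold and 19 in AT lambs. Leaving out control 3 ended the calls, at -0.77 (adjusted p = 0.230) in cold and -0.74 (adjusted p = 0.239) in AT lambs, while all 3 controls gave -2.69 (adjusted p = 0.00217) and -2.65 (adjusted p = 0.00236). Over 23 alternatives, PPARGC1A kept a negative log2FC and an adjusted p under 0.05 in 22 for each group, with a range of the adjusted p from 0.000139 to 0.230 in cold and from 0.000189 to 0.239 in AT lambs.

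ESRRA had 1545 normalized counts in control 1 and 2960 in control 3. The cold lambs ranged from 747 to 1067 (median 820), all below both controls, and the AT lambs from 775 to 2088 (median 919). The AT range met that of the controls through AT 3 at 2088, while the other 5 AT lambs were at or below 937. Control 2, at 862, lay among the exposed lambs.

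The log2FC of ESRRA was -1.36 ± 0.32 in cold lambs (edgeR adjusted p = 0.0115) and -1.07 ± 0.32 in AT lambs (adjusted p = 0.0309). Without control 3 neither was called (-0.80, adjusted p = 0.388, and -0.51, adjusted p = 0.596). The call in cold lambs held in 21 of 23 alternatives and that in AT lambs in 11 of 23, with the adjusted p between 0.000342 and 0.388 in cold and between 0.000321 and 0.596 in AT lambs. Without AT 3 the AT value was -1.37 (adjusted p = 0.000321).

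PPARD in both exposed groups and TFAM in AT lambs were lower in thyroid tissue, each by less than 2-fold. PPARD had 2062 and 4884 normalized counts in the controls and 1525 to 2410 in the exposed lambs, so that only control 3 stood out, and control 2, at 1414, was below all of them. Its log2FC was -0.88 ± 0.24 in cold lambs (edgeR adjusted p = 0.0222) and -0.89 ± 0.24 in AT lambs (adjusted p = 0.0191). Without control 3 the values were -0.11 (adjusted p = 0.863) and -0.12 (adjusted p = 0.839), without control 1 -1.38 in both, and over 23 alternatives the adjusted p ranged from 0.000728 to 0.863.

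TFAM had 1125 and 1364 normalized counts in the 2 controls, 768 to 977 in cold lambs (median 872) and 538 to 1013 in AT lambs (median 811). The exposed lambs were below both controls, but control 2 was at 633. The log2FC was -0.64 ± 0.19 in AT lambs (edgeR adjusted p = 0.0254) and -0.51 ± 0.19 in cold lambs (adjusted p = 0.0667). With all 3 controls the AT value was -0.38 (adjusted p = 0.237), and without control 3 it was -0.48 (adjusted p = 0.378).

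In thyroid cold against control, 2 of the 9 tested members were thus called, where 8.04% of 16122 genes were called and 6.15% were called lower, and 3 members were lower at the adjusted p alone, where 16.9% of genes were. In AT against control, 2 were called, where 7.8% of genes were called and 5.98% were called lower, and 4 members were lower at the adjusted p alone, where 18.7% of genes were. The median log2FC of all genes was -0.28 in both comparisons. Under TMM scaling, which moved that median to 0.02 and 0.05, the log2FC of PPARGC1A was -0.90 in cold lambs (adjusted p = 0.0231) and -0.84 in AT lambs (adjusted p = 0.0308), ESRRA was called in cold lambs (-1.03, adjusted p = 0.0389) but not in AT lambs (-0.71, adjusted p = 0.129), and no adjusted p of PPARD or TFAM was under 0.05. Of the called genes, 76.5% were lower in cold and 76.6% in AT lambs with the reference genes, and 42.4% and 36.3% with TMM.

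Of the cell type marker sums given here for thyroid tissue, only that of follicle genes separated the 2 controls from all exposed lambs. Control 2, at 1930000, lay within the exposed range of that sum. The follicle marker sum was between 2880000 and 5890000 in the 2 controls, 1800000 to 2710000 in cold lambs and 1330000 to 2430000 in AT lambs. The endothelial marker sum was 26050 and 39490 in the controls and 12130 to 26400 in the exposed lambs, and that of macrophages 1280 and 1410 in the controls and 1320 to 2770 in the exposed lambs. For muscle genes, control 3, which had the higher PPARGC1A, ESRRA and PPARD of the 2 controls, had a sum of 586, within the range of exposed lambs, while control 1 had 364500. The parathyroid and C cell sum overlapped between the groups, at 701 and 31920 in the controls, 797 to 181700 in cold lambs and 221 to 264600 in AT lambs. The part of these RNAs in the lower PPARGC1A and ESRRA was not tested.

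PPARGC1B was low in thyroid tissue apart from 1 library. It had 53.2 and 67.5 normalized counts in the controls, 29.7 to 43.2 in cold lambs and 39.0 to 56.7 in 5 AT lambs, but 650 in AT 3, the library with the highest muscle sum. The log2FC of AT against control was 1.27 ± 1.05 (edgeR adjusted p = 0.401) and -0.39 without AT 3 (adjusted p = 0.320), and that of cold against AT went from -1.96 ± 0.71 (unadjusted p = 0.0153, adjusted p = 0.911) to -0.31 (adjusted p = 0.951). Over 23 alternatives the adjusted p lay between 0.285 and 0.689 for AT against control and between 0.553 and 1 for cold against AT. The part of muscle RNA in this value was not tested.

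PPARA, PPARG, NRF1 and RXRA showed no called difference in thyroid tissue, with log2FC values between -0.35 and 0.28 against the controls and adjusted p between 0.327 and 0.877. RXRA had 2175 to 2663 normalized counts in the 2 controls and 2158 to 3221 in the exposed lambs, while control 2 stood at 6309. Between cold and AT lambs the log2FC of the 8 members other than PPARGC1B lay between -0.29 and 0.13. For PPARGC1A the difference was -0.03 ± 0.17 (edgeR adjusted p = 0.995), and for PPARD 0.00 ± 0.18 (adjusted p = 0.999). In thyroid tissue the genes whose values ran closest to PPARGC1A over 14 libraries were GOLGA3 (r = 0.94, rho 0.83), PEX5 (r = 0.94, rho 0.81) and SEC24C (r = 0.93, rho 0.69), of 11224 genes ranked. With control 2 added r was 0.40 for GOLGA3, -0.09 for PEX5 and 0.90 for SEC24C, so that the order rested on the choice of libraries. No member was called in cold against AT by edgeR or DESeq2, where edgeR called 0% of all genes (870 had an unadjusted p under 0.05, and DESeq2 called 2), and PPARGC1B was the 1 member with an unadjusted p under 0.05.

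**Figure D4:**
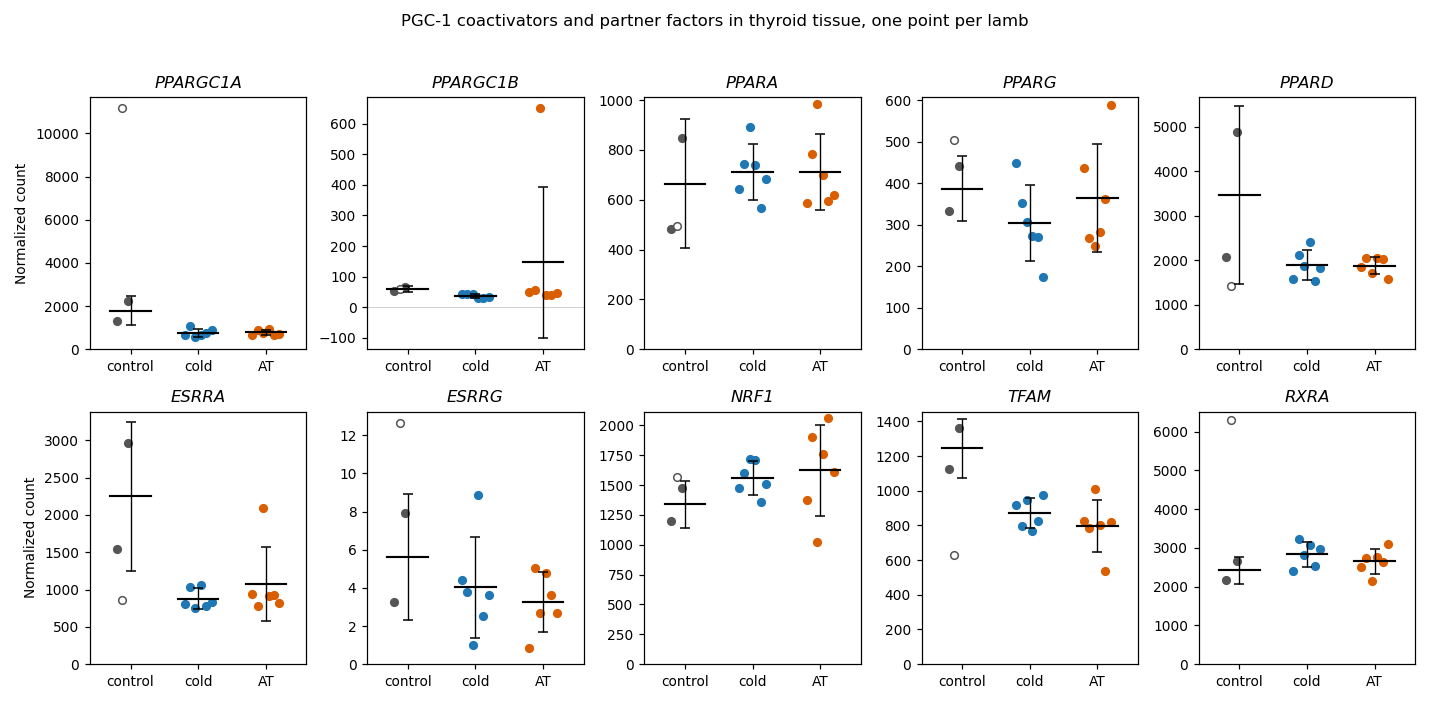
Normalized counts in thyroid tissue of the 10 genes, 1 panel per gene, for controls (grey), cold lambs (blue) and AT lambs (orange), with 1 point per lamb, the mean as a line and the SD as a bar, and control 2, which is outside the mean, as an open point. PPARGC1A and TFAM lie below both used controls in every exposed lamb, AT 3 stands out for PPARGC1B (650) and ESRRA (2088), and control 2 stands out for PPARGC1A (11170) and RXRA (6309).

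A gene called in 1 tissue is not thereby shown to differ between the tissues. In the fit of both tissues, the difference of PPARGC1A between cold and control lambs differed between BAT and thyroid tissue by 0.75 ± 0.62 (edgeR adjusted p = 0.643), and that of ESRRA by 0.96 ± 0.52 (adjusted p = 0.467). For AT against control the values were -0.05 ± 0.62 for PPARGC1A (adjusted p = 0.974), 0.73 ± 0.52 for ESRRA (adjusted p = 0.468) and -0.51 ± 0.40 for PPARD (adjusted p = 0.512). No member passed an adjusted p of 0.05 or an unadjusted p of 0.05 in edgeR, or was called by DESeq2, in either test, where edgeR called 0.201% of genes for cold and 2.35% for AT.

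**Figure D5:**
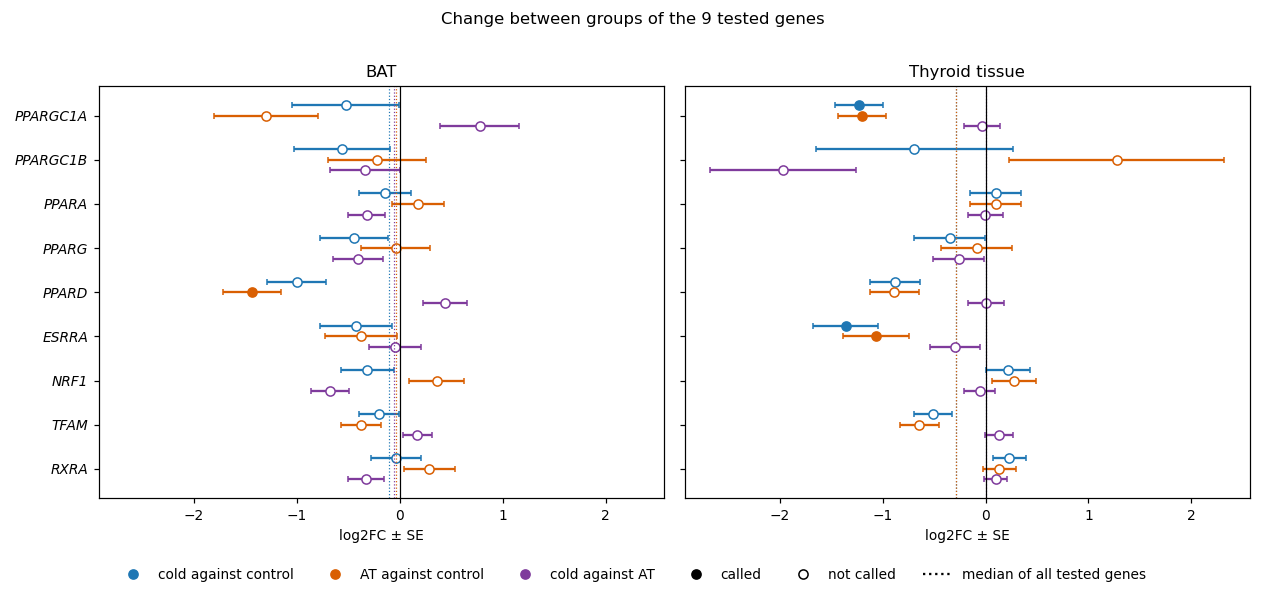
The log2FC with its SE of the 9 tested genes for BAT in the left panel and thyroid tissue in the right panel, in cold against control (blue), AT against control (orange) and cold against AT (purple), with filled points for called genes and dotted lines at the median of all tested genes. PPARD in BAT and PPARGC1A and ESRRA in thyroid tissue carry the calls, all of them below zero and all against controls.

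Genes around the coactivators were described from 4 lists. Of 36 partners of PGC-1 (other coactivators, corepressors, modifying enzymes and receptors), 35 were tested in BAT and 36 in thyroid tissue. PPRC1, the remaining member of the PGC-1 family, was lower in all 4 comparisons with controls. In BAT PPRC1 had 791 ± 105 normalized counts in the 2 controls, 377 ± 81.2 in 6 cold lambs and 403 ± 73.7 in 6 AT lambs, log2FC values of -1.07 ± 0.22 (edgeR adjusted p = 0.0295) and -0.97 ± 0.22 (adjusted p = 0.0141). In thyroid tissue PPRC1 had 1660 ± 830, 550 ± 158 and 553 ± 95, log2FC values of -1.59 ± 0.27 in both (adjusted p = 0.00280 in cold and 0.00230 in AT lambs). With TMM the PPRC1 values were -0.97 and -0.89 in BAT and -1.26 and -1.22 in thyroid tissue, all at an adjusted p of 0.01 or lower. In BAT the low adjusted p values rested on both controls, and in thyroid tissue the calls rested on control 3. Without control 1 the BAT values were -0.95 (adjusted p = 0.268) and -0.82 (adjusted p = 0.155), and without control 3 they were -1.21 (adjusted p = 0.137) and -1.08 (adjusted p = 0.108). In thyroid tissue PPRC1 was at -0.95 in both exposed groups without control 3 (adjusted p = 0.193 in cold and 0.183 in AT lambs), and at -2.03 in both without control 1.

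Of the partners, PPRC1 was among those called lower in BAT of cold lambs, where 0.637% of genes were called lower. In BAT of AT lambs edgeR called none and DESeq2 called 1 higher. There 3 of 35 were lower at the adjusted p alone, beside 6.15% of all genes. At an unadjusted p under 0.05, 6 were lower and 2 higher, beside 3868 of 14905 genes in either direction. In thyroid tissue 3 of 36 were called lower in cold lambs, beside 6.15% of all genes, and 1 in AT lambs, beside 5.98%, and without control 3 none was called in either. With these libraries edgeR called no partner higher in any of the 6 comparisons. The partners called in thyroid tissue of cold lambs beside PPRC1 were PRMT1, an arginine methyltransferase (-1.12 ± 0.24, edgeR adjusted p = 0.00768), and LRPPRC, which binds mitochondrial mRNA (-1.06 ± 0.34, adjusted p = 0.0406). With all 3 controls their values were -0.78 and -0.75, neither called. The median log2FC of the list stayed near that of all genes, at -0.30 against -0.28 in thyroid cold against control.

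Of 30 genes known as PPAR targets, 28 were in the table and 25 were tested in BAT. In AT lambs 3 were called lower, where 3.21% of all genes were called lower. In cold lambs edgeR called none and DESeq2 called 1 lower. At an unadjusted p under 0.05, 2 were lower and 2 higher there, beside 2704 of 14905 genes in either direction. The 3 genes called in AT lambs were FABP3, CPT1A and FABP4. FABP3 had a log2FC of -2.01 ± 0.48 (edgeR adjusted p = 0.0194), CPT1A, the gate of mitochondrial fatty acid oxidation, one of -1.59 ± 0.30 (adjusted p = 0.00731) and FABP4, the adipocyte fatty acid carrier, one of -1.40 ± 0.33 (adjusted p = 0.0184). CPT1A had 5780 ± 2300 normalized counts in controls and 1920 ± 541 in AT lambs, without overlap. Without control 1 none was called, with FABP3 at -1.01 (adjusted p = 0.389), CPT1A at -1.11 (adjusted p = 0.150) and FABP4 at -1.29 (adjusted p = 0.143). Without control 3 FABP4 was at -1.48 (adjusted p = 0.133), while FABP3 and CPT1A were still called. The list's median was -0.02 beside -0.03 for all genes.

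In thyroid tissue, 26 PPAR targets were tested and 4 were called lower in each exposed group, where 6.15% of all genes in cold and 5.98% in AT lambs were called lower. Without control 3, 1 of 25 was called in each group. FABP3 changed by -2.20 ± 0.30 in cold lambs (edgeR adjusted p = 0.00127) and -2.29 ± 0.30 in AT lambs (adjusted p = 0.000874), from 20300 ± 15500 normalized counts in controls to 4420 ± 754 and 4140 ± 806. SLC25A20, the carnitine carrier of the inner mitochondrial membrane, changed by -1.83 ± 0.39 (adjusted p = 0.00810) and -1.62 ± 0.40 (adjusted p = 0.0124), and PLIN2, a lipid droplet coat protein, by -1.35 ± 0.36 (adjusted p = 0.0208) and -1.71 ± 0.36 (adjusted p = 0.00583). The fourth gene was PDK4, a brake on glucose oxidation, in cold lambs (-2.40 ± 0.75, adjusted p = 0.0428) and UCP1 in AT lambs (-3.26 ± 1.07, adjusted p = 0.0445). UCP1 had only 172 and 340 normalized counts in thyroid controls and 3.01 to 157 in exposed lambs. With TMM, FABP3 and SLC25A20 were still called in both exposed groups and PLIN2 in AT lambs, whereas PDK4 and UCP1 were not. Single controls also decided these values. Without control 1, PDK4 was at -0.34 in cold lambs (adjusted p = 0.83) and PLIN2 at -0.26 in cold (adjusted p = 0.692) and -0.62 in AT lambs (adjusted p = 0.274). Without control 3, FABP3 was at -1.06 (adjusted p = 0.0895) and -1.15 (adjusted p = 0.0636), SLC25A20 at -1.31 (adjusted p = 0.271) and -1.11 (adjusted p = 0.341) and PDK4 at -3.20 (adjusted p = 0.0961), while PLIN2 was still called. UCP1 did not pass the filter on low counts without either control, and was at -3.10 without AT 3 (adjusted p = 0.0512).

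Of 30 respiratory chain, citric acid cycle and other mitochondrial genes known as targets of estrogen-related receptors or NRF1, 21 were in the table and all were tested. In BAT of cold lambs 2 were called lower, where 0.637% of all genes were. CS, citrate synthase, had a log2FC of -1.25 ± 0.28 (edgeR adjusted p = 0.0382) and ATP5MC1, a subunit of the ATP synthase rotor, one of -1.19 ± 0.27 (adjusted p = 0.0416). CS had 3830 ± 65.3 normalized counts in controls and 1620 ± 158 in cold lambs. In BAT of AT lambs TIMM8A, a protein of mitochondrial import (-1.27 ± 0.29, adjusted p = 0.0157), and ATP5MC1 (-1.10 ± 0.27, adjusted p = 0.0221) were called. There 3.21% of all genes were called lower. With all 3 controls, 7 of the 21 genes were called lower in cold and 6 in AT lambs, beside 323 and 446 of all 14940 tested genes. Without control 1 or without control 3 the calls of this list were lost, as were most calls over all genes.

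In thyroid tissue the median log2FC of these 21 genes was -1.15 in cold and -0.60 in AT lambs, beside -0.28 for all genes. Of the 21, 3 were called lower in cold and 1 in AT lambs, where 6.15% and 5.98% of all genes were called lower. TIMM8A was called in both, at -1.85 ± 0.41 (edgeR adjusted p = 0.00879) and -1.59 ± 0.41 (adjusted p = 0.0151), and SDHB, a subunit of respiratory complex II (-1.15 ± 0.36, adjusted p = 0.0403), and OGDH, of the citric acid cycle (-1.04 ± 0.29, adjusted p = 0.0253), in cold lambs. The summed normalized counts of the list were 73870 and 129100 in the 2 controls, 45010 to 56850 in cold lambs and 42370 to 52300 in 5 AT lambs, but 173900 in AT 3. Without AT 3, which also had the most muscle RNA, 14 of the 21 genes were called lower in each exposed group, where 8.48% of all genes in cold and 10.5% in AT lambs were called lower. Under TMM 1 of the 21 genes was called lower in cold lambs and none in AT lambs, beside 336 and 270 of all 16122 tested genes. Without control 3 the calls of this list were lost, as were most calls over all genes.

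The last list held 13 genes that copy or transcribe mitochondrial DNA beside TFAM, of which 12 were tested. None was called in BAT by edgeR or DESeq2. At an unadjusted p under 0.05, 2 of the 12 were lower in cold and 4 in AT lambs. Of all 14905 genes tested in BAT, 2704 and 3868 were under that p in either direction. In thyroid tissue of cold lambs 6.15% of all genes were called lower. Among them were TFB2M, which works with TFAM at mitochondrial promoters (-1.17 ± 0.35, edgeR adjusted p = 0.0328), and MTERF3, a regulator of mitochondrial transcription (-1.09 ± 0.36, adjusted p = 0.0482). Neither was called with TMM (adjusted p = 0.102 and 0.143), without control 1 (adjusted p = 0.135 and 0.125) or without control 3 (adjusted p = 0.230 and 0.339). Neither edgeR nor DESeq2 called a gene of this list in AT lambs. There 3 of the 12 were lower at the adjusted p alone, beside 18.7% of all genes. At an unadjusted p under 0.05, 7 were lower, beside 5888 of 16122 genes in either direction. The list's median was -0.59 in cold and -0.55 in AT lambs, beside -0.28 for all genes. In cold against AT, edgeR and DESeq2 called no gene of the 4 lists in either tissue. At an unadjusted edgeR p under 0.05 in BAT, 4 of 25 PPAR targets were lower and 4 higher in cold than in AT lambs. Of 35 partners, 2 were lower and 1 higher, and no gene of the other lists was under that p. Of all 14905 genes, 1831 were, in either direction.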

How the data were processed

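RNA of BAT and thyroid tissue from 15 lambs was extracted with TRIzol, enriched with oligo(dT) beads and sequenced as paired reads. Per the study's methods, the authors trimmed reads with Trimmomatic (version 0.39), aligned them with STAR (version 2.7.7a) to Oar_rambouillet_v1.0 and counted them over exons with featureCounts (Subread version 2.0.0). The deposited values are whole-number read counts per gene in 30 libraries, which are not normalized. Multi-mapping reads were counted, so reads of near-identical copies can be counted at several genes, and the strand setting is not given in the sources used here, so that reads of antisense partners cannot be told apart.

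A gene entered the test of a tissue when 10 or more of its 14 libraries had 10 reads or more for it, and the fit of both tissues when 20 or more of 28 did. Size factors came from ACTB, RPL19 and HUWE1, which assumes that these genes did not change. They lay between 0.537 and 1.84 for BAT libraries and between 0.741 and 1.21 for thyroid libraries. Models used edgeR (version 4.0.16) quasi-likelihood tests with robust dispersion on the groups cold, AT and control in R (version 4.3.3), with Benjamini-Hochberg adjustment over all tested genes. SE is the absolute log2FC divided by the square root of F. DESeq2 (version 1.42.0), TMM and median-of-ratios scaling, other filters, RNA integrity as a covariate, all 3 controls and leaving out each library were alternatives. Libraries are separate lambs, and the lamb number in the sample titles pairs the tissues of 1 animal, used as a block in an alternative. Recovery on simulated data was counted at an adjusted p under 0.05, with no limit on the log2FC. With changes of 2-fold, 0 of 50 changed genes passed in BAT cold against control, and of 4-fold 31 of 46. For thyroid cold against control these were 8 of 50 and 30 of 47, and for BAT against thyroid 39 of 48 and 50 of 50. Cold against AT was not simulated. Of the genes left unchanged, 34 passed in thyroid cold against control and 2 in BAT cold against control. The median log2FC of these unchanged genes was -0.44 in thyroid tissue and -0.04 in BAT, with size factors from the same 3 reference genes. Counts outside the gene pair named in the report, which hold the precision of single values, numbered at least 8093700 in BAT and 18098434 in thyroid libraries. No replicates were alike within sampling noise.

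The genes named beside the members were the called genes of each list with the largest absolute log2FC, at most 4 a list and comparison, PPRC1, UCP1, and the 3 genes with the highest Pearson r to PPARGC1A in each tissue. The members and lists were chosen with earlier results of these data known. Of the listed genes, 13 were not found in the table by symbol, and the result of 1 is not reported here. Chromosome numbers were assigned from symbols shared with a RefSeq table of ARS-UI_Ramb_v3.0, while coordinates are those of the deposited table. Alternatives for the gene lists were added after seeing the data.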

Additional observations from a re-analysis of the deposited data

Results flagged for a closer look

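Of 40 groups of 6 lambs (10 genes, 2 tissues and 2 exposures), 2 held a lamb far from the other 5 by Dixon's test, and chance gives about 1 in 20 such groups. Both were in thyroid tissue of AT 3. PPARGC1B had 650 normalized counts there, while the next AT lamb had 56.7. ESRRA had 2088 normalized counts in the same library, while the next had 937. AT 3 had a skeletal muscle marker sum of 3985000 normalized counts, while the other AT thyroid libraries were at or below 1738. The part of muscle RNA in both values was not tested.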

How the results depend on the processing

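The number of called members in BAT was 0 in cold against control and 1 with DESeq2. In BAT AT against control it was 1 in the reported fit and 2 with all 3 controls, with or without TMM, and 0 to 1 when single libraries were left out, with 0 without control 1 or control 3. In thyroid cold against control it was 2, and 1 with TMM, with median-of-ratios factors and with all 3 controls and TMM, and 0 to 3 without single libraries. In thyroid AT against control it was 2, but 0 with TMM, median-of-ratios factors or RNA integrity as a covariate, 1 with all 3 controls, with all 3 controls and TMM or with only the 2 groups compared, 4 at the adjusted p alone, and 0 to 3 without single libraries, the 0 in both thyroid comparisons being without control 3. Between BAT and thyroid tissue it was 2, 3 with TMM or all 3 controls, 8 at the adjusted p alone, and 2 to 4 without single lambs (4 without control 3). With the lamb as a replicate block it was again 2, the same 8 members passed the adjusted p, and the block changed no other call. Members called in cold against AT, or differing between tissues in their change, numbered 0 under all alternatives run. No called value changed sign, and 86 of 1590 uncalled values did. Over all genes, BAT cold against control gave 181 calls and 318 with TMM, 324 with median-of-ratios factors, 727 with all 3 controls, 1100 with these and TMM, 628 with DESeq2, 340 with only the 2 groups compared, 0 without control 1, 19 without control 3, 99 without cold 6, 113 without cold 2 and 406 without AT 6. BAT AT against control gave 904 calls, 1640 with all 3 controls and TMM, 488 with only the 2 groups compared, 123 without control 1 and 77 without control 3. BAT cold against AT gave 41 calls, 145 with DESeq2, 18 with RNA integrity as a covariate, 24 with only the 2 groups compared, 0 and 14 with all 3 controls without and with TMM, and 0 to 99 without single libraries (0 without cold 4 or AT 5, 2 without AT 3, 9 without cold 3 or AT 1, 17 without cold 1, 20 without cold 2 or cold 5, 26 without control 1 or control 3, 84 without AT 2 and 99 without AT 6). Thyroid cold and AT against control gave 1296 and 1258 calls, 792 and 744 with TMM, 789 and 739 with median-of-ratios factors, 90 and 94 without control 3, and in AT lambs 2041 without AT 3 and 2102 without control 1. In BAT, 52.5% of calls in cold and 52.9% in AT against control were lower, and 28.6% and 36.1% with TMM, which moved the median of all genes from -0.10 to 0.02 and from -0.03 to 0.05. Single libraries, of the exposed groups as well as controls, thus moved these counts by over 1.5 times. In simulated data a 2-fold change was rarely detected in cold against control of either tissue, but mostly detected in BAT against thyroid.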
